A study of Mus musculus with 8 samples.

Results

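The genes described here encode 10 enzymes that make, lengthen and desaturate fatty acids: Acly, Acaca, Fasn, Scd1, Scd2, Elovl1, Elovl5, Elovl6, Fads1 and Fads2. They were chosen by symbol from general knowledge of the pathway, and all 10 were found among the 11756 genes of the deposited table. RNA came from CD11c positive bone marrow cells of C57BL/6 mice, taken from femurs and tibias and isolated by fluorescence-activated sorting. CD11c, an integrin subunit, marks dendritic cells and part of the macrophages. On culture day 6, cells of 4 libraries were loaded for 24 h with acetylated low density lipoprotein (acLDL), which enters cells through scavenger receptors, and cells of 4 control libraries were not. In the series' design text, acLDL loading is a stand-in for the surroundings of an atherosclerotic lesion. Whether each library stands for its own animal or culture is not said, and p-values then reflect only how far these libraries scatter, which may be technical.

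Acly cleaves citrate in the cytosol to acetyl-CoA, Acaca carboxylates acetyl-CoA to malonyl-CoA, and Fasn joins these units into palmitate. Elovl6 lengthens palmitate, and the stearoyl-CoA desaturases Scd1 and Scd2 place the first double bond in saturated chains. Fads2 and Fads1 act in turn on dietary polyunsaturated chains, with Elovl5 lengthening the product between them, while Elovl1 extends saturated chains to the very long lengths found in sphingolipids. In many tissues these genes are driven by SREBP-1c, the product of Srebf1, whose gene is in turn a target of the liver X receptors, and sterols and polyunsaturated fatty acids restrain SREBP processing.

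The values are the authors' normalized signal per gene, with library totals between 3917426 and 4385051, and an estimated 3230420 to 5459827 reads behind each library. No value lies between 0 and 5 in the table, so a gene listed at 0 may have had a low estimate. The share of all listed genes at 0 was 6.98%, 18.5%, 21.9% and 11.1% in acLDL libraries 1 to 4. In controls it was between 5.63% and 12.0%, so a 0 in acLDL library 2 or 3 is not particular to a gene. Libraries differed in their signal from short transcripts. An index of this, the median log2 deviation of genes with no coding transcript of 1000 nt or more minus that of the rest, was 1.06, -1.34, -2.26 and -0.20 in acLDL libraries 1 to 4 and between 0.22 and 1.05 in controls. The differences of the 10 genes are therefore also given without acLDL libraries 2 and 3, and with the index as a covariate. The sorting marker gene Itgax, which encodes CD11c, spanned 81.5 to 195 in the control libraries, and 0 to 189 in those given acLDL. In bulk RNA of this kind, fewer cells of a type and less RNA per cell cannot be told apart.

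With acLDL, 8 of the 10 genes had a lower and 2 a higher mean on the log2 scale, where 55.7% of all 10091 tested genes had a lower mean. After quantile normalization 3 of the 10 had a lower mean and the median of the 10 differences was 0.10 in log2, where that of the 10091 genes was 0.15. The median log2 fold change of the 10 genes was -0.37, against -0.13 for all tested genes. None of the 10 passed limma's threshold of an adjusted p of 0.05, and among all tested genes the share was 0%. Groups that did not overlap were found for 1 of the 10, on the lower side, against 2.2% of all tested genes on the lower side and 3.44% on the higher. At an unadjusted p under 0.05, 2 of the 10, Scd2 and Elovl5, were lower and 0 were higher, against 8.93% lower and 7.42% higher among all tested genes. All 10 passed the filter, which asked for 4 or more libraries at 10 or above. Elovl5 passed it with exactly 4 libraries, 3 of them controls, and Acaca and Fads2 with 5.

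**Figure D1:**
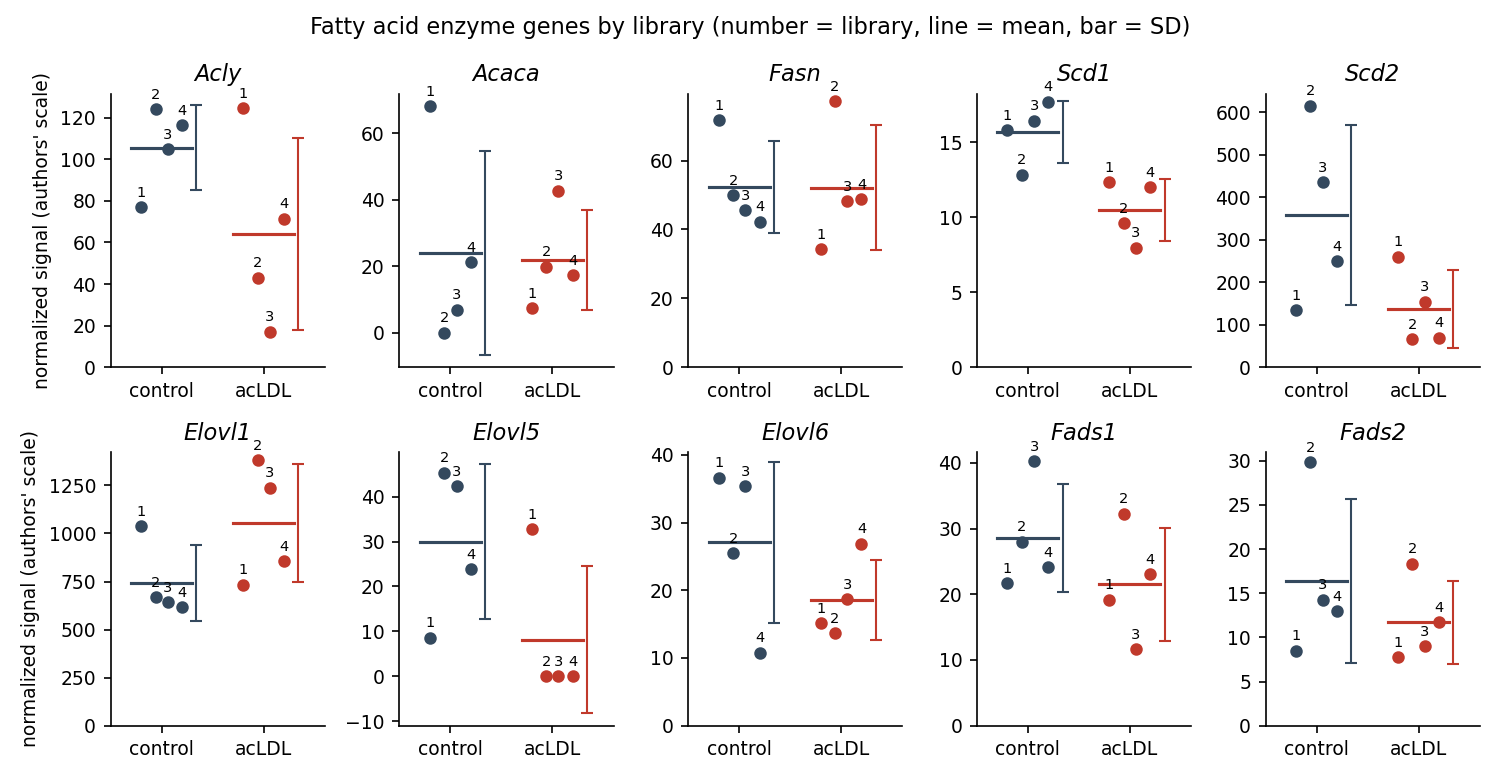
Normalized signal in the authors' scale (vertical axes, linear) of the 10 genes in each control and acLDL library; points carry the library number, lines are group means and bars are SDs (n = 4). Scd1 is the gene whose groups do not overlap, and Elovl5 is listed at 0 in acLDL libraries 2, 3 and 4.

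Of the 3 enzymes that build palmitate, Acly had a lower mean with acLDL, Acaca a higher one on the log2 scale, and Fasn nearly equal ones. Acly (chromosome 11, 100476353 to 100528000, minus strand, GRCm38) had values of 125, 43.0, 17.0 and 71.4 in acLDL libraries 1 to 4 and of 77.1, 124, 105 and 117 in control libraries 1 to 4. AcLDL library 1 was the highest of the 8, and the other 3 acLDL libraries lay below every control. The means were 64.0 ± 46.1 (SD, n = 4) after acLDL and 106 ± 20.6 without it, and the log2 fold change, taken like all below on log2(value + 5) as acLDL minus control, was -0.94 (SE 0.51, limma's adjusted p = 0.317). It was -0.13 without acLDL libraries 2 and 3, and 0.10 with the short-transcript covariate.

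Acaca (chromosome 11, 84129672 to 84401651, plus strand), which encodes the enzyme of the committed step, had values of 7.27, 19.8, 42.7 and 17.3 with acLDL and of 68.1, 0, 6.89 and 21.1 in controls. Its controls spanned the whole range of the 8 libraries, from a listing at 0 in library 2 to the highest value in library 1. The log2 fold change of 0.38 (SE 0.82, limma's adjusted p = 0.794) was smaller than its standard error. It became -0.25 without control library 2, 1.04 without control library 1, -0.15 without acLDL libraries 2 and 3 and -0.69 with the short-transcript covariate.

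Fasn (chromosome 11, 120805846 to 120824547, minus strand) had values of 34.3, 77.3, 48.2 and 48.8 with acLDL and of 71.7, 49.9, 45.6 and 42.2 in controls. The highest and the lowest of the 8 values were both from acLDL libraries. Means were 52.2 ± 18.0 (SD, n = 4) and 52.4 ± 13.3, with a log2 fold change of -0.03 (SE 0.33, limma's adjusted p = 0.961). The Fasn difference was -0.29 without acLDL libraries 2 and 3 and -0.34 with the short-transcript covariate.

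The 2 stearoyl-CoA desaturase genes were both lower on average with acLDL. They lie 87.6 kb apart on chromosome 19, Scd2 at 44293674 to 44306864 on the plus strand and Scd1 at 44394455 to 44407879 on the minus strand. They share much of their coding sequence, and whether reads of these 3′ end libraries could be assigned to both was not tested. Scd2 had values of 260, 65.7, 154 and 69.2 in acLDL libraries 1 to 4 and of 134, 616, 436 and 249 in controls. AcLDL libraries 2 and 4 lay below every control, and libraries 1 and 3 lay within the controls' range, which was wide. The means were 137 ± 91.4 (SD, n = 4) and 359 ± 212, with a log2 fold change of -1.36 (SE 0.57, unadjusted p = 0.040, limma's adjusted p = 0.298).

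The Scd2 difference was -1.16 without acLDL libraries 2 and 3 and -0.83 with the short-transcript covariate. In the same settings that of Acly was -0.13 and 0.10. Scd2 passed the adjusted threshold in neither setting. Without acLDL library 1 the Scd2 difference was -1.74 and passed the threshold (limma's adjusted p = 0.049). Scd1 was near the floor of the table, with 12.3, 9.59, 7.97 and 12.0 with acLDL and 15.8, 12.8, 16.4 and 17.7 in controls. All 4 acLDL values lay below all 4 control values, by a margin of less than 1 between the closest. Scd1 was the single case of such a separation among the 10. Its log2 fold change was -0.42 (SE 0.37, limma's adjusted p = 0.485), and it was -0.26 both without acLDL libraries 2 and 3 and with the covariate. It turned to 0.15 after quantile normalization.

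Of the elongase genes, Elovl1 had a higher mean with acLDL and Elovl5 and Elovl6 a lower one. Elovl1 (chromosome 4, 118428093 to 118432953, plus strand) had values of 734, 1382, 1237 and 857 in acLDL libraries 1 to 4 and of 1037, 668, 644 and 617 in controls. All 4 acLDL libraries lay above control libraries 2, 3 and 4, and control library 1 stood within the acLDL range. The means were 1052 ± 307 (SD, n = 4) and 741 ± 198, a log2 fold change of 0.49 (SE 0.27, limma's adjusted p = 0.319). It was 0.13 without acLDL libraries 2 and 3, the libraries with the highest Elovl1, and 0.06 with the short-transcript covariate. The gene overlaps Cdc20 on the opposite strand, and whether strand was used in counting is not given in the sources used here.

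Elovl5 (chromosome 9, 77917364 to 77984519, plus strand) had a value of 32.8 in acLDL library 1 and was listed at 0 in acLDL libraries 2, 3 and 4. Controls had 8.56, 45.3, 42.3 and 23.9. AcLDL library 1 was thus level with the controls while the other 3 lay below each of them. The log2 fold change of -1.91 (SE 0.79, unadjusted p = 0.038, limma's adjusted p = 0.298) depends on the pseudocount, at -3.45 with 1 and -0.90 with 20 in place of 5. Without acLDL library 1 it was -2.64 and passed the threshold (limma's adjusted p = 0.0267), although Elovl5 met the filter only with that library counted. Without acLDL libraries 2 and 3 the log2 fold change was -1.18, and with the short-transcript covariate -0.61.

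Elovl6 (chromosome 3, 129532355 to 129638495, plus strand) had values of 15.1, 13.6, 18.7 and 26.9 with acLDL and of 36.6, 25.5, 35.4 and 10.8 in controls. Control library 4 was the lowest of the 8, and the other controls lay at or above most acLDL values. Means were 18.6 ± 5.91 (SD, n = 4) and 27.1 ± 12.0, with a log2 fold change of -0.38 (SE 0.44, limma's adjusted p = 0.607). It was -0.24 without acLDL libraries 2 and 3 and -0.38 with the covariate. The Elovl6 direction turned after quantile normalization, to 0.05.

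Acly and Elovl5 lay below every control in acLDL libraries 2 and 3, and Elovl1 lay above every control there. The 250 bases before their RefSeq starts are therefore shown (GRCm38.p6, 5′ to 3′ on the gene's strand). Scd1 also lay below every control in these libraries, but no window was at hand for it. Capitals mark matches on either strand to the letters GGGCGG of the GC box, to the CCAAT box, to the palindromic E-box CACGTG or to the sterol response element TCACNCCAC. The Acly window is chr11:100528001-100528250 on the minus strand, the Elovl5 window chr9:77917115-77917364 and the Elovl1 window, the first of its 2 starts, chr4:118427843-118428092, both on the plus strand.
Acly: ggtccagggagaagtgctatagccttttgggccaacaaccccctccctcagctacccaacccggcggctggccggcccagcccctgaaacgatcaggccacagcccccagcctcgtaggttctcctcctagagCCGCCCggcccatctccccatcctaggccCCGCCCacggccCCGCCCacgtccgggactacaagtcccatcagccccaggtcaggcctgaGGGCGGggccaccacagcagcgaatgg
Elovl5: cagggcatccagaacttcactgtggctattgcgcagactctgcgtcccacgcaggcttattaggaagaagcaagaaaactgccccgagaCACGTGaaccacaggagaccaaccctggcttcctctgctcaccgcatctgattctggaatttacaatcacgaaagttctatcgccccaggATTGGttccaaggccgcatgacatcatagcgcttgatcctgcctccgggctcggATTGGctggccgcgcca
Elovl1: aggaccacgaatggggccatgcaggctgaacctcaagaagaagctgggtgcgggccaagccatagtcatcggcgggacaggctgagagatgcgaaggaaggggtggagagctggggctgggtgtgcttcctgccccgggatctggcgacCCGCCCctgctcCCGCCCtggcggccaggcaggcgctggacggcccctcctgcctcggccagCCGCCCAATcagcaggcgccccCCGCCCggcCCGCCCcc

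The Acly window held 4 GC boxes and the Elovl1 window 5, while the Elovl5 window held 0. Elovl5 instead had 2 CCAAT boxes, which start 71 and 17 bases before the gene's start, and an E-box 161 bases before it. Elovl1 had a single CCAAT box, which partly overlaps a GC box. Windows were at hand for 7 of the 10 genes, 8 in all. Of these, 4 held a GC box, 3 a CCAAT box, 1 an E-box and 0 a sterol response element. Among all 32851 windows of the same length, 32.7% held a GC box, 33.8% a CCAAT box, 6.02% an E-box and 1.05% a sterol response element. These letters describe the windows and show no binding.

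**Figure D2:**
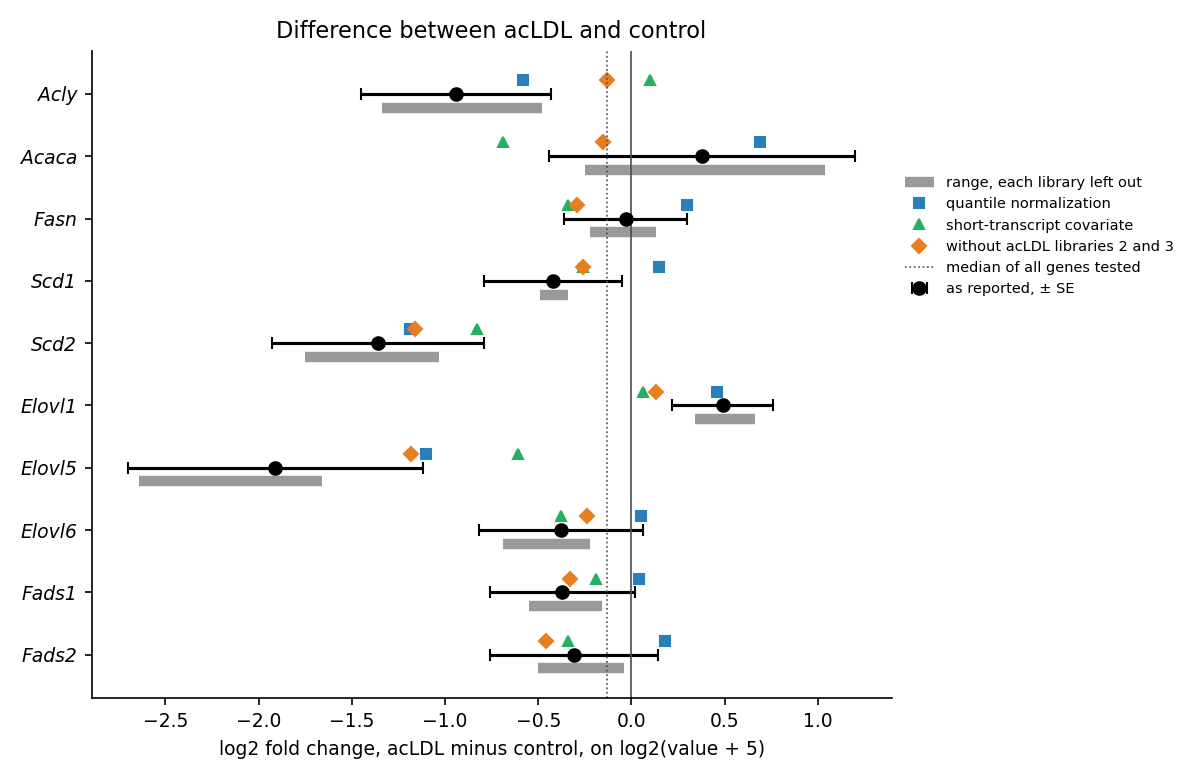
Log2 fold change of each gene on log2(value + 5), acLDL minus control (horizontal axis), as reported with its SE (black), as a range with each library left out in turn (grey) and under 3 alternatives (coloured). Scd2, Elovl5 and Elovl1 keep their sign under every setting drawn, while Acly reaches 0.10 with the short-transcript covariate and Acaca and Fasn lie on both sides of 0.

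The desaturase genes of polyunsaturated chains had lower means with acLDL and overlapped between the groups. Fads2 (chromosome 19, 10062765 to 10101746, minus strand) and Fads1 (10182888 to 10196877, plus strand) lie 81.1 kb apart. Fads1 had values of 19.2, 32.2, 11.6 and 23.1 in acLDL libraries 1 to 4 and of 21.7, 28.0, 40.2 and 24.1 in controls. Its groups overlapped, with acLDL library 3 lowest and control library 3 highest (log2 fold change -0.37 with an SE of 0.39, adjusted p = 0.573 by limma). Fads2 had values of 7.74, 18.3, 9.02 and 11.7 with acLDL and of 8.51, 29.9, 14.3 and 13.0 in controls. Control library 1 was among its low values and acLDL library 2 among its high ones (log2 fold change -0.31 with an SE of 0.45, adjusted p = 0.694 by limma). Without acLDL libraries 2 and 3 the log2 fold change was -0.33 for Fads1 and -0.46 for Fads2, and with the covariate -0.19 and -0.34. After quantile normalization both turned, to 0.04 for Fads1 and 0.18 for Fads2.

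Ratios of related enzymes within a library, taken on value + 5, were compared for 3 pairs by a two-sided exact permutation test over 70 assignments, where the smallest p possible is 0.029. The log2 ratio of Scd1 to Scd2 was -2.99 ± 0.92 (SD, n = 4) after acLDL and -3.93 ± 1.04 without it (difference 0.94, exact p = 0.20, adjusted over 3 ratios 0.30). The log2 ratio of Elovl6 to Elovl5 was 1.48 ± 1.62 and -0.05 ± 1.15 (difference 1.53, exact p = 0.20, adjusted 0.30). Because Elovl5 is listed at 0 in acLDL libraries 2, 3 and 4, the pseudocount sets the ratio there. The difference was 3.02 with a pseudocount of 1, 0.64 with 20 and 0.93 without acLDL libraries 2 and 3. The log2 ratio of Fads1 to Fads2 was 0.65 ± 0.29 and 0.71 ± 0.57 (difference -0.06, exact p = 0.86, adjusted 0.86).

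Across the 8 libraries the 10 genes showed no single order. In acLDL libraries 2, 3 and 4 together, 3 of the 10 (Acly, Scd1 and Elovl5) lay below the lowest control, as did 18.9% of all tested genes. AcLDL library 1 lay within the control range for 5 of the 10. The lowest value of a gene came from acLDL library 3 for 3 genes, from acLDL library 1 for 2 and from control library 4 for 2. The highest came from control library 2 for 3 genes (Scd2, Elovl5 and Fads2). The median deviation of the 10 genes from their own means was -0.24, -0.02, -0.33 and -0.05 in acLDL libraries 1 to 4 and 0.14, 0.20, 0.37 and 0.17 in control libraries 1 to 4. Over all tested genes these medians were 0.14, -0.07, -0.07 and -0.05, and 0.02, 0.13, 0.14 and 0.11. Control library 1, with the lowest short-transcript index among controls, had the highest control values of Acaca, Fasn, Elovl1 and Elovl6. It had the lowest control values of Acly, Scd2, Elovl5, Fads1 and Fads2. Whether these values go with the index was not tested.

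**Figure D3:**
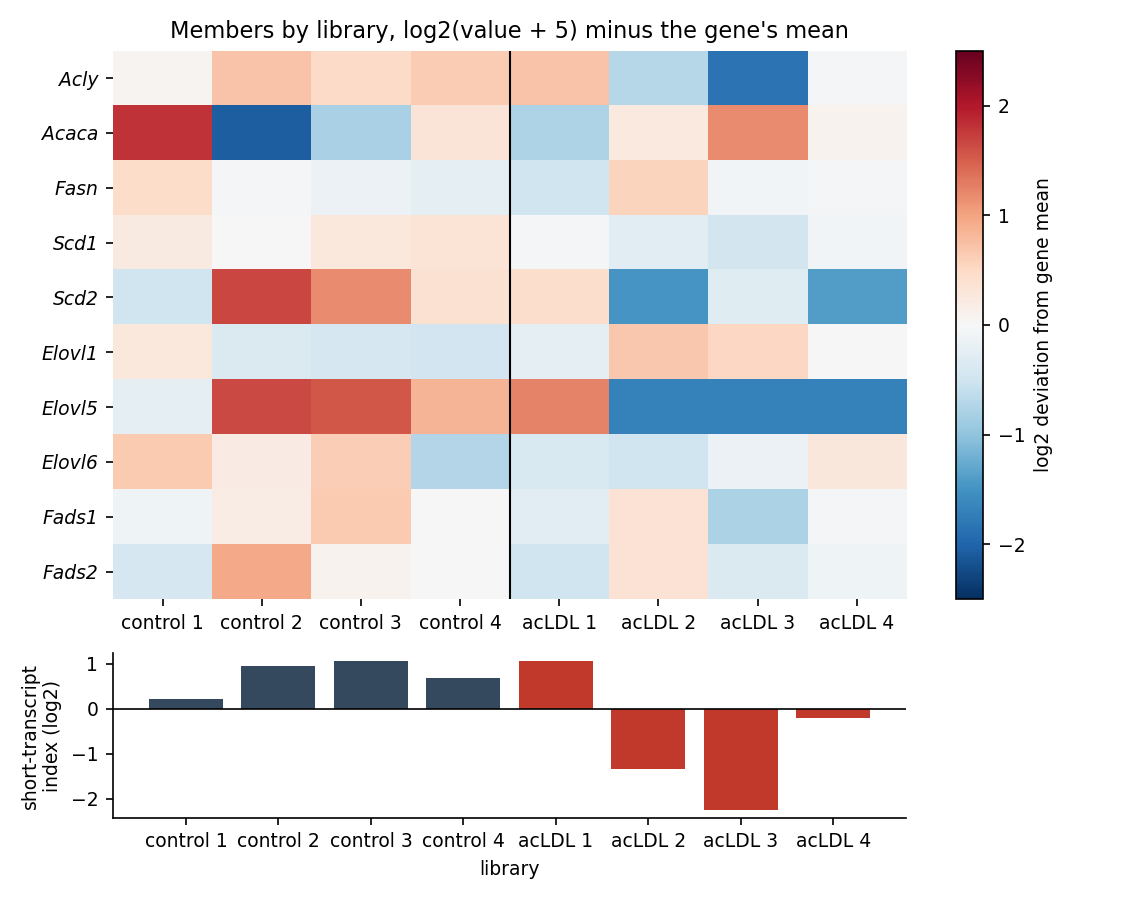
Top, log2(value + 5) of each gene minus its mean over 8 libraries, in colour, by library; bottom, the short-transcript index of each library in log2 units. Elovl5 and Acly are low (blue) in acLDL library 3, where the index is -2.26, and Acaca is high there and in control library 1.

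Of 13 tested genes that control this pathway, 6 were higher and 7 lower by their means with acLDL. The middle of their log2 differences lay at -0.06, and that of every tested gene at -0.13. Srebf1 was among the 7 lower genes. It had values of 39.7, 6.57, 5.08 and 16.1 in acLDL libraries 1 to 4 and of 18.0, 54.6, 43.2 and 59.0 in controls. The log2 fold change was -1.32 (SE 0.58, limma's adjusted p = 0.298). AcLDL library 1 was within the control range and the other 3 below it, and the difference was -0.31 with the short-transcript covariate and -1.75 without acLDL library 1, where it passed the threshold (limma's adjusted p = 0.0437). Srebf2, which encodes the factor of the sterol branch, was named, like Ubxn8 below, because its groups did not overlap. Its highest acLDL value was 192 and its lowest control 193. The Srebf2 log2 fold change was -1.16 (SE 0.38, limma's adjusted p = 0.298), -0.75 without acLDL libraries 2 and 3, and -0.48 when the short-transcript index was a covariate. Of the liver X receptor genes, Nr1h3 was not tested, with acLDL values from 0 to 6.35 and control values from 0 to 16.0. Nr1h2 had 27.7, 0, 0 and 6.96 with acLDL, while its controls lay between 10.3 and 24.5 (log2 fold change -1.22 with an SE of 0.67, adjusted p = 0.321 by limma). Its log2 fold change was 0.03 with the short-transcript covariate. Ubxn8, a gene for a UBX domain protein of the endoplasmic reticulum, was put among these control genes through an alias that belongs to another gene. Ubxn8 is 1 of the 6 counted as higher among the 13 tested genes that control the pathway. Its values were 967 to 2536 with acLDL and 579 to 880 in controls (difference 1.14 in log2, SE 0.30, limma's adjusted p = 0.298, and 0.56 with the covariate).

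Other genes of the pathway were taken from 5 lists by role, with 96 genes, of which 78 were listed and 72 tested. None passed the adjusted threshold. At an unadjusted p under 0.05, 14 were lower and 4 higher, beside 8.93% and 7.42% of all tested genes. These counts were 1 and 1 without acLDL libraries 2 and 3, beside 1.96% and 1.06% of all tested genes, and 1 and 1 with the short-transcript covariate, beside 2.89% and 1.68%. Without Ubxn8 the higher counts were 3, 0 and 0. Among 11 partner enzymes of elongation and desaturation, all 11 had a lower mean (median -0.63), beside 55.7% of all tested genes (median -0.13). The count was 9 after quantile normalization, 9 without acLDL libraries 2 and 3 and 6 with the covariate. In these settings the median of the 11 was -0.34, -0.23 and -0.11, and that of all tested genes 0.15, -0.05 and 0.02. Tecr, the reductase that ends each round of elongation, had 181, 52.8, 7.42 and 58.7 in acLDL libraries 1 to 4, against controls of 139 to 248 (log2 fold change -1.84, SE 0.70, and -0.47 with the covariate). Of 16 genes that supply citrate, acetate and NADPH, 11 had a lower mean (median -0.86, and 0.05 with the covariate). Acss2, which makes acetyl-CoA from acetate, had 19.1, 0, 0 and 44.5 with acLDL, against controls of 36.8 to 117 (log2 fold change -2.33, SE 0.80). With 2 acLDL libraries listed at 0, the Acss2 value depends on the pseudocount (-3.49 with 1), and it was -0.93 without acLDL libraries 2 and 3 and -1.24 with the covariate.

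Of 10 tested genes listed as other carboxylases, elongases and desaturases, 6 were higher and 4 lower by their means. The median was 0.27, and -0.12 with the covariate. No carboxylase was among the 10, and Oxsm, Mecr, Cbr4, Acsf3 and Mlycd are neither elongases nor desaturases. Mlycd, which breaks down malonyl-CoA and so opposes the product of Acaca, had 47.0, 0, 7.38 and 12.2 with acLDL, against controls of 41.7 to 76.0 (log2 fold change -2.01 with an SE of 0.66, adjusted p = 0.298 by limma). Mlycd was level with the controls in acLDL library 1 alone, and its log2 fold change was -1.04 without acLDL libraries 2 and 3 and -0.98 with the covariate. Of 22 genes that activate fatty acids or build them into lipids, 15 were lower and 7 higher by their means (median -0.32). Among them Lpcat1, which puts acyl chains into phosphatidylcholine, had values of 87.7, 92.6, 65.3 and 54.7 with acLDL and of 190, 114, 111 and 169 in controls. Its groups did not overlap, acLDL library 1 included, which is how it was picked from its list. Of the 72 tested genes, 3 had no overlap on the lower side and 2 on the higher, beside 2.2% and 3.44% of all tested genes. The Lpcat1 log2 fold change of -0.91 (SE 0.29, limma's adjusted p = 0.298) was -0.98 without acLDL libraries 2 and 3 and -0.93 with the covariate. Most of the genes named above moved towards 0 in these settings, while Lpcat1, Fasn and Fads2 did not. Lpcat1 passed the adjusted threshold in neither setting.

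**Figure D4:**
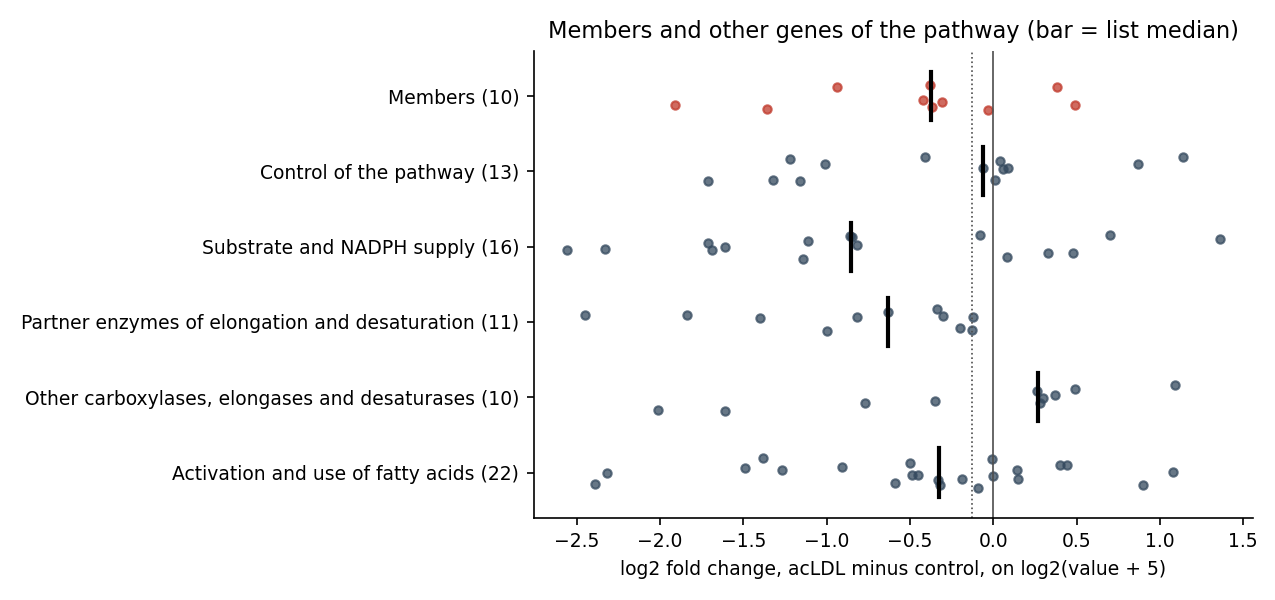
Log2 fold change on log2(value + 5), acLDL minus control (horizontal axis), of the 10 genes (red) and of the tested genes of 5 lists by role (dark), with the number tested in brackets; black bars are medians and the dotted line is the median of all tested genes. The median is -0.86 for substrate and NADPH supply and 0.27 for the list named other carboxylases, elongases and desaturases, and every list spans both a gene below -1 and one nearer to 0. No carboxylase was tested under that name.

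Leaving out acLDL library 1 changed the calls over all genes. Without it 2190 genes passed the adjusted threshold (21.7%), 14.4% lower and 7.28% higher. The remaining acLDL libraries had a short-transcript index of -1.34, -2.26 and -0.20, below every control (0.22 to 1.05). In these calls, those of Scd2, Elovl5 and Srebf1 included, acLDL and the index therefore cannot be told apart. Of the 10 genes, 2 passed, Scd2 and Elovl5, both lower, and Acly had an adjusted p of 0.0597 in limma's fit. Elovl5 met the filter only with acLDL library 1 counted.

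Summed markers of other cells differed between libraries. The summed signal of 11 listed granulocyte markers spanned 496 to 11396 in the acLDL libraries and 5436 to 13277 in the control libraries, with 10 of the 11 lower on average, and Elane not among the listed genes. The sum of 2 erythroid markers, Hbb-bs and Car2, spanned 83.7 to 212 in the former and 272 to 1480 in the latter. For 2 listed lymphocyte markers, Cd79a and Ms4a1, it spanned 29.4 to 76.8 and 16.6 to 31.4. The 8 macrophage markers summed to 8034 to 12487 with acLDL and 7392 to 9230 in controls, although 5 of the 8 had a lower mean with acLDL. The 10 markers of dendritic cells and the sort summed to 31362 to 44670 and 25098 to 29525, although 6 of the 8 tested had a lower mean. None of 7 markers of adipocytes and stroma is in the table used here. The part of these cells in the values of the 10 genes was not tested.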

How the data were processed

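Poly(A) RNA of 8 libraries (4 acLDL, 4 control) was prepared with a Lexogen QuantSeq kit for the 3′ end of messages, per the labels' protocols, while the design text speaks of the 5′ end. Per the submitters' processing notes, the tools were kallisto and bcl2fastq 2.20, with mm10. For the annotation, filters and normalization the sources name nothing. The deposited table holds a normalized signal per gene and library. The name of the table speaks of raw counts, but its values are not whole. In each library 9.7% to 13.9% of the values under 40 lie on multiples of a common step (tolerance 0.01 steps, against 2% by chance), and dividing the totals by that step gave the estimated reads. No counting interval was computed, since reads could not be recovered.

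Genes at 10 or above in 4 or more libraries were tested with limma 3.58.1 (R 4.3.3) on log2(value + 5), with a variance trend, robust moderation and group as the only term. Benjamini-Hochberg adjustment ran over 10091 genes. A pseudocount of 5 understates differences of low genes. Ratios were tested with SciPy 1.17.1. The members and lists were chosen with earlier results of these data known. Named genes are the 10 members, Srebf1, Nr1h3, Nr1h2 and, per list, up to 3 genes past the adjusted threshold, or else up to 3 at an unadjusted p under 0.05 without overlap, or else the gene with the smallest p. Coordinates and transcript lengths came from GENCODE mouse release 21 (GRCm38), with a coding transcript length for 86.2% of the listed genes, and promoter sequences from RefSeq (GRCm38.p6).

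For acLDL against control, the fit was also run on simulated data, over 10091 genes in 10 draws with 200 genes changed. It called 8.1% of the genes shifted by a log2 of 1 and 41.2% where the shift was 2. Of its calls 2.38% were false, and 1 draw without changes had a call. The scatter of each simulated library was a random mixture of that of all libraries around their group means. These rates therefore do not cover a short-transcript index that differs between the groups, as it did here. Alternatives were pseudocounts of 1 and 20, other filters, median-of-ratios size factors, quantile normalization, a replicate block, a short-transcript covariate, and leaving out libraries.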

Additional observations from a re-analysis of the deposited data

Results flagged for a closer look

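Among 38 groups of 4 libraries checked (19 genes in 2 groups), 3 held a library whose gap to the next took up more of the group's range than Dixon's limit for 4 samples allows, where chance flags about 1 in 20. Elovl1 in control library 1, at 1037, stood above the other controls, which lay between 617 and 668. Elovl5 in acLDL library 1, at 32.8, stood above the other 3 acLDL libraries, all listed at 0. Nr1h3, a low gene, was listed at 0 in acLDL library 3 and lay between 5.38 and 6.35 in the others. Values under 5 are absent from the table, so that last gap can come from a difference near the floor.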

How the results depend on the processing

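The median log2 fold change of the 10 genes, -0.37, was -0.23 with a pseudocount of 20 and 0.10 after quantile normalization. That scaling moved the median of all tested genes from -0.13 to 0.15, and relative to it the 10 genes stood at -0.25 as reported and -0.05 after it. Leaving out each library in turn gave medians of the 10 genes from -0.44 to -0.28. The count of genes past the adjusted threshold ran from 0 to 2190 over these leave-outs, with the 2190 without acLDL library 1 and 0 in the other 7, and was 1 after quantile normalization (Rn18s-rs5, an 18S ribosomal RNA repeat, named after its value was seen). Of the 72 other pathway genes, between 0 and 24 passed, the 24 again without acLDL library 1. The count at an unadjusted p under 0.05, 1650 (749 higher, 901 lower), ran from 701 to 3992. It was 305 without acLDL libraries 2 and 3, and 462 with the short-transcript covariate.

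Single genes turned direction as follows. After quantile normalization the log2 fold change was 0.30 for Fasn, 0.15 for Scd1, 0.05 for Elovl6, 0.04 for Fads1 and 0.18 for Fads2. With the short-transcript covariate it was 0.10 for Acly, -0.69 for Acaca and 0.03 for Nr1h2. Acaca was at -0.15 without acLDL libraries 2 and 3 and at -0.25 without control library 2. With each library left out in turn Acaca ran from -0.25 to 1.04 and Fasn from -0.22 to 0.13, and Fasn was at 0.12 without control library 1. The difference in the Fads1 to Fads2 ratio, -0.06, was 0.13 without acLDL libraries 2 and 3 and ran from -0.32 to 0.11 with each library left out in turn. The cause of these changes was not tested.

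Deviations of same-numbered libraries from the group means correlated at -0.55, -0.21, -0.28 and 0.03 for numbers 1 to 4. Differences such as those in the short-transcript index enter these values too. They therefore cannot show whether a number stands for a shared animal, culture or batch. With the replicate block, 730 genes had an unadjusted p under 0.05 and none passed the adjusted threshold. Depth limits Scd1, Fads1, Fads2, Elovl5 and Elovl6, whose highest values correspond to about 19.6, 38.6, 26.7, 40.6 and 37.4 estimated reads. Acaca and Elovl5 drop out when a value of at least 5 is required in all libraries.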
